A study of Mus musculus with 18 samples.

Results

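The postmitotic neuron markers Dcx, Tubb3, Stmn2, Map2, Elavl3, Elavl4, Nefl, Nefm, Gap43 and Ina were followed across every condition of a wild-type and TET triple knockout (TKO) time course of mouse embryonic stem cells. The 10 genes were taken by name from 25239 genes in a table of raw read counts, as a set of known neuronal genes, with earlier results of these data known. All but Elavl3 and Elavl4 encode parts of the neuronal cytoskeleton, its regulators or, for Gap43, a growth cone protein, and Elavl3 and Elavl4 encode RNA-binding proteins of neurons.

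The cells were E14Tg2a embryonic stem cells, an established mouse line, and a derivative in which the open reading frames of Tet1, Tet2 and Tet3 had been excised with CRISPR/Cas9. The TKO arm was 1 clone, so genotype and clone cannot be told apart. Both lines were kept in 2i/LIF, turned into epiblast-like cells (EpiLCs) with activin A and FGF, and aggregated in suspension, either without cytokines or with BMP4, BMP8a, SCF, LIF and EGF, the mix used to make primordial germ cell-like cells (PGCLCs). RNA was taken from EpiLCs (day 0) and from aggregates at day 2 and day 6. The wild-type groups were EpiLCs, day 2 without cytokines, day 6 without cytokines and day 6 with cytokines. The TKO groups were EpiLCs and aggregates with and without cytokines at both day 2 and day 6. Each of the 9 groups had 2 libraries, numbered as replicates, which the study calls biological replicates. Neither the labels nor the study say whether they came from separate differentiations. The p-values rest on a spread between libraries that 1 model shares across all 9 groups. Standard errors and p-values can therefore understate the spread of a group that varies more, such as wild-type day 6 without cytokines. The labels call the wild-type day 6 libraries with cytokines aggregates, whereas the study describes that sample as cells sorted for SSEA1 and CD61. For these libraries the effects of cytokines and of sorting cannot be told apart.

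Young neurons build an axon and dendrites from microtubules and neurofilaments while their growth cones explore. Doublecortin and MAP2 stabilise microtubules, stathmin-2 and βIII-tubulin add to their turnover and content, and neurofilament subunits give the axon its calibre. The neuronal ELAV proteins HuC and HuD bind AU-rich transcripts in young neurons, and the HuD target Gap43 encodes a growth cone protein. Outside the nervous system many such genes are kept low by the repressor REST, while TET enzymes oxidise methylated cytosines at CpG sites.

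The RefSeq promoter table (build GRCm38.p6) held windows for 6 of the 10 markers. They are shown because the CpG content of these starts differs widely, and its part in the marker levels was not tested. Each line gives bases upstream of the annotated start that lie in no annotated exon, 5′ to 3′ on the strand of the gene, with every CpG in capitals. The stretch ends 92 bases before the start for Dcx, 129 for Tubb3 and 56 for Map2. For Elavl3, Elavl4 and Ina it reaches the start. The annotated genes of the other 4 markers, which are named only, are Stmn2 (chromosome 3, 8509360 to 8561606, plus strand), Nefl (chromosome 14, 68083863 to 68089095, plus strand), Nefm (chromosome 14, 68082590 to 68124846, minus strand) and Gap43 (chromosome 16, 42248442 to 42340651, minus strand).
Dcx: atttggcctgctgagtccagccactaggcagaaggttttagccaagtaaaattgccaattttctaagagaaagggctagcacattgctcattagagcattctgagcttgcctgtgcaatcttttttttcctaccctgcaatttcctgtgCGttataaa
Tubb3: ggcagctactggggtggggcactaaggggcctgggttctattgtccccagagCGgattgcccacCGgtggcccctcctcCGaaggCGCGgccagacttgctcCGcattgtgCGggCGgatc
Map2: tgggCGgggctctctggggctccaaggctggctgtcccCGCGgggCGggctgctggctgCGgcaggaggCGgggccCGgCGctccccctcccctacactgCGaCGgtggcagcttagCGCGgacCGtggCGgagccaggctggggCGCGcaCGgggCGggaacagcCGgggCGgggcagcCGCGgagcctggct
Elavl3: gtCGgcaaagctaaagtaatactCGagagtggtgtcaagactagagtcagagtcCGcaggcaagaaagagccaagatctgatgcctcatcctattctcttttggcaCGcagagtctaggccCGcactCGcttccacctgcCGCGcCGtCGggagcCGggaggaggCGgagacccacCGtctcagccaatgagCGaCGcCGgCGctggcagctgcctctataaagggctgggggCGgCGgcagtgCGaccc
Elavl4: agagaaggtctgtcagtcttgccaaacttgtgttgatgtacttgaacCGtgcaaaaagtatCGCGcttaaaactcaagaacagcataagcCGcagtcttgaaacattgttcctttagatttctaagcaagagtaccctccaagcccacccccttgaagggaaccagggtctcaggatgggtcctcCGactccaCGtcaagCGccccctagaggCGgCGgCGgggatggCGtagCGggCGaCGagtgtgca
Ina: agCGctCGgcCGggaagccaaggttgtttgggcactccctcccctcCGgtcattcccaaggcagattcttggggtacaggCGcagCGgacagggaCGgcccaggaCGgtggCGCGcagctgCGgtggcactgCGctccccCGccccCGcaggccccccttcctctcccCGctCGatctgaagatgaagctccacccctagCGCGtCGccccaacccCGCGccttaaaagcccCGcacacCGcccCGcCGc
The Dcx bases are chrX:143933312-143933469 on the minus strand and hold 1 CpG in 158 bases. Those of Tubb3 (chr8:123411303-123411423, plus strand) hold 8 in 121 bases, those of Map2 (chr1:66175079-66175272, plus strand) 22 in 194 bases, and those of Ina (chr19:47014431-47014680, plus strand) 25 in 250 bases. Elavl3 (chr9:22052024-22052273, minus strand) has 20 CpG and the most upstream of 4 Elavl4 starts (chr4:110351912-110352161, minus strand) has 14, each in 250 bases. Over whole windows of 300 bases, 250 before and 50 after the start, the median of all 32851 RefSeq windows was 7 CpG (quartiles 3 and 20). Both Dcx windows held 3 CpG, whereas those of Tubb3, Elavl3, Ina and Map2 held 26, 29, 32 and 37. The 4 Elavl4 windows held 4, 6, 5 and 23 CpG, and the bases shown are those of the window with 23. The E-box CANNTG, a palindrome searched with any overlap, stood in 72.3% of all windows and among the markers in those of Elavl3 (2 matches), Ina (1) and 3 of the 4 Elavl4 starts (1, 4 and 4). It was not in the windows of Dcx, Tubb3 and Map2. These are letter matches only, and no methylation or binding was measured here.

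Library totals ran from 11286050 to 41257861 counts, of which the ribosomal precursor Rn45s took 16.2% to 47.59% and the 10 markers together 0.00899% to 0.509%. The 2 wild-type day 6 libraries without cytokines had the largest chi-square per degree of freedom, 169.9 against 11.16 to 61.14 in the other 8 groups. It was taken on raw counts scaled by library totals, so depth and Rn45s differences also enter it. Marker calls, counts of the neuronal and progenitor gene lists, and Rest are also given without 1 of these 2 libraries, and marker correlations without both. The counts of broadly expressed relatives and of REST with its corepressors, and the genes of most similar profile, rest on both. Tet1 counted 737 and 967 normalised reads in TKO EpiLCs against 6227 and 6036 in wild type, but overlapped wild type at day 2 and day 6 without cytokines, whereas Tet3 was lower in TKO in all 4 matched conditions. Tet2 was higher in TKO than in wild type at day 2 without cytokines (355 and 405 against 287 and 200). Counts were summed over whole genes and can include untranslated exons left by excision of the reading frames, so they do not check the excised part. Defining neuronal markers Snap25, Syt1 and Rbfox3 summed to 1575 and 505 normalised counts in the wild-type day 6 libraries without cytokines and to 6.21 to 267 in the other 16. In the same 2 libraries 5 neural progenitor markers summed to 21370 and 34050, while 6 PGCLC markers summed to 108 and 112. The 6 PGCLC markers summed to 9210 and 7399 in wild-type day 6 libraries with cytokines and to 2950 to 3771 in the 8 TKO aggregate libraries. Of 5 neuroendocrine markers Ins1 and Gcg were at 0 in the wild-type day 6 libraries without cytokines, and the 5 summed to 1548 and 409 there and to 39.6 to 148 in the other 16, and their part in the marker levels was not tested. All values come from bulk RNA, in which fewer cells of a type and less RNA per cell cannot be told apart.

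The microtubule genes had their highest mean level in wild-type day 6 aggregates without cytokines. Dcx, encoding doublecortin, a microtubule-binding protein of migrating neurons, lies on chromosome X (143855842 to 143933311, GRCm38, minus strand). In wild type it counted 3.21 and 1.11 normalised reads in EpiLCs, 74.1 and 50.5 at day 2, 9404 and 2530 at day 6 without cytokines, and 0.695 and 2.57 at day 6 with cytokines. In TKO it counted 15.9 and 0 in EpiLCs, 7.27 and 6.01 at day 2 without cytokines, 1.13 and 3.72 at day 2 with cytokines, 5.38 and 0 at day 6 without cytokines, and 1.68 and 1.15 at day 6 with cytokines. A count of 0 allows up to 3 counts, or 3.3 normalised counts in the TKO EpiLC library. No TKO library exceeded 15.9, and the lower day 6 wild-type library without cytokines was 34.1 times the highest library of any other condition. Below the day 6 and day 2 wild-type groups, the order of the 7 remaining groups rested on 0 to 16 raw counts a library.

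Tubb3, the neuronal β-tubulin recognised by the TUJ1 antibody, was present in every library. Its wild-type levels were 490 and 441 normalised counts in EpiLCs, 1238 and 1879 at day 2, 17310 and 18370 at day 6 without cytokines, and 314 and 261 at day 6 with cytokines. Its TKO levels were 162 and 216 in EpiLCs, 1081 and 1497 at day 2 without cytokines, 424 and 539 at day 2 with cytokines, 1281 and 1878 at day 6 without cytokines, and 1544 and 667 at day 6 with cytokines. Wild-type and TKO libraries overlapped at day 2 without cytokines, and TKO libraries at day 6 without cytokines lay within the range of wild-type day 2. It was the only marker whose 2 wild-type day 6 libraries without cytokines were nearly level, with a replicate ratio of 0.942.

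Stmn2, encoding the growth-associated tubulin-binding protein stathmin-2, was the exception to the separation seen in the other markers. Wild type gave 490 and 332 normalised counts in EpiLCs, 996 and 1444 at day 2, 5518 and 3848 at day 6 without cytokines, and 526 and 665 at day 6 with cytokines. TKO gave 1472 and 1567 in EpiLCs, 1497 and 1537 at day 2 without cytokines, 2229 and 2098 at day 2 with cytokines, 1581 and 2125 at day 6 without cytokines, and 4351 and 2392 at day 6 with cytokines. All 10 TKO libraries were above the 6 wild-type libraries of the other 3 conditions. The higher TKO day 6 library with cytokines also exceeded the lower wild-type day 6 library without them, so the top 2 groups overlapped.

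Map2, the dendritic microtubule-associated protein, gave 77.1 and 76.7 normalised counts in wild-type EpiLCs, 363 and 464 at day 2, 10640 and 5203 at day 6 without cytokines, and 66.1 and 62.4 at day 6 with cytokines. In TKO it gave 110 and 84.7 in EpiLCs, 209 and 187 at day 2 without cytokines, 69.1 and 90.6 at day 2 with cytokines, 214 and 227 at day 6 without cytokines, and 63.8 and 111 at day 6 with cytokines. Within TKO the 4 libraries of aggregates without cytokines were all above the 4 with cytokines, and all 10 TKO libraries were below wild-type day 2.

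The intermediate filament genes Nefl, Nefm and Ina differed in their levels outside that condition. Nefl, the light neurofilament subunit, gave 235 and 371 normalised counts in wild-type EpiLCs, 215 and 199 at day 2, 11320 and 4243 at day 6 without cytokines, and 28.5 and 43.8 at day 6 with cytokines. In TKO it gave 3943 and 1749 in EpiLCs, 389 and 583 at day 2 without cytokines, 299 and 283 at day 2 with cytokines, 224 and 304 at day 6 without cytokines, and 218 and 184 at day 6 with cytokines. The second-highest group was thus TKO EpiLCs, whose higher library came within a factor of 1.08 of the lower wild-type day 6 library without cytokines. Nefm, the medium subunit, gave 0 and 13.3 normalised counts in wild-type EpiLCs, 89.7 and 69.1 at day 2, 3295 and 1087 at day 6 without cytokines, and 2.78 and 9.65 at day 6 with cytokines. In TKO it ranged from 9.34 to 23.8 except at day 6 without cytokines, where it gave 48.5 and 37.9. The high TKO EpiLC level was therefore seen in Nefl and not in Nefm, which gave 23.8 and 14.3 there. Exons of the 2 genes, neighbours on chromosome 14, overlap by 1108 bases on opposite strands, and counting did not use strand, so reads of that stretch cannot be told apart.

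Ina, encoding α-internexin, the neuronal intermediate filament protein that precedes the neurofilaments, was already abundant in EpiLCs. Wild type gave 1396 and 1373 normalised counts in EpiLCs, 1110 and 1108 at day 2, 9850 and 3264 at day 6 without cytokines, and 680 and 508 at day 6 with cytokines. TKO gave 1214 and 801 in EpiLCs, 854 and 650 at day 2 without cytokines, 301 and 292 at day 2 with cytokines, 448 and 649 at day 6 without cytokines, and 95.8 and 85 at day 6 with cytokines. All 10 TKO libraries were below the lower wild-type EpiLC library, and the 2 lowest of all 18 were those of TKO at day 6 with cytokines. Part of Ina (456 exonic bases) overlaps Nt5c2 on the other strand.

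Gap43, the growth cone phosphoprotein, gave 54.6 and 62.8 normalised counts in wild-type EpiLCs, 289 and 366 at day 2, 3812 and 2094 at day 6 without cytokines, and 0.695 and 7.08 at day 6 with cytokines. In TKO it gave 84.3 and 15.4 in EpiLCs, 48.8 and 111 at day 2 without cytokines, 103 and 64.5 at day 2 with cytokines, 49.5 and 48 at day 6 without cytokines, and 25.2 and 13.8 at day 6 with cytokines. The 10 TKO libraries lay from 13.8 to 111, between the wild-type day 2 libraries and the wild-type day 6 libraries with cytokines.

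The RNA-binding markers were low in all but 1 condition. Elavl3, encoding HuC, gave 111 and 130 normalised counts in wild-type EpiLCs, 120 and 159 at day 2, 3896 and 2329 at day 6 without cytokines, and 68.1 and 76.6 at day 6 with cytokines. In TKO it gave 76.4 and 120 in EpiLCs, 67.5 and 61.3 at day 2 without cytokines, 31.7 and 29.8 at day 2 with cytokines, 114 and 114 at day 6 without cytokines, and 63.8 and 65.4 at day 6 with cytokines. Elavl4, encoding HuD, gave 17.7 and 16.7 in wild-type EpiLCs, 57.5 and 38.9 at day 2, 3114 and 1021 at day 6 without cytokines, and 34.8 and 29 at day 6 with cytokines. Its 10 TKO libraries lay from 5.67 to 36.6, with the 2 highest at day 6 without cytokines and the 2 lowest at day 2 with cytokines. For both genes the 18 libraries fell into 2 ranges, with the wild-type day 6 libraries without cytokines at least 14.7 times (Elavl3) and 17.8 times (Elavl4) the highest of the other 16.

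**Figure D1:**
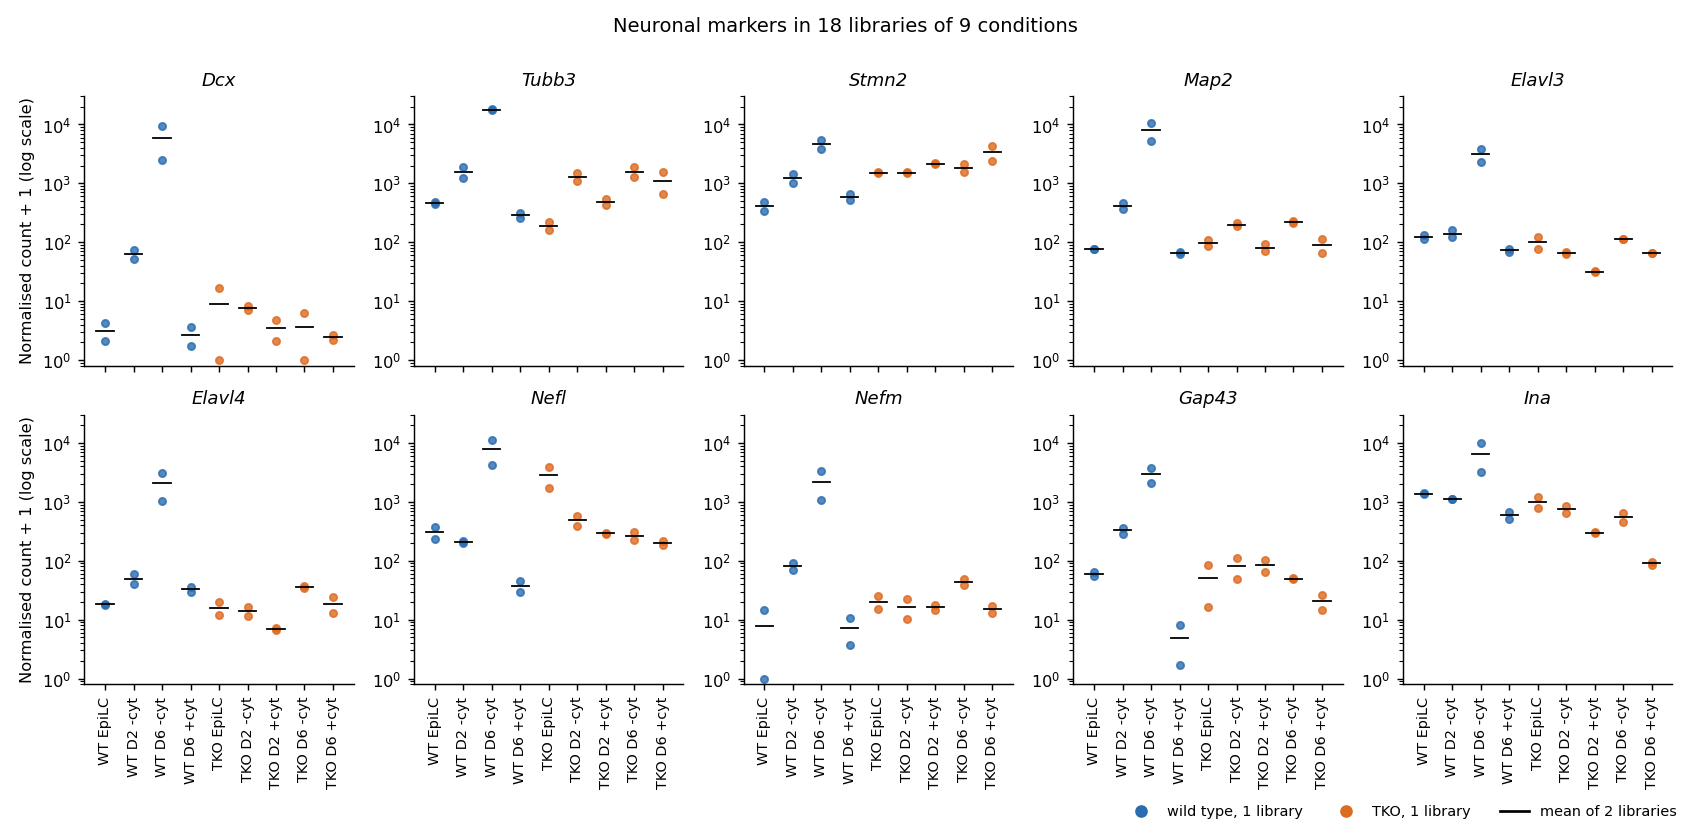
Normalised count plus 1 (log axis) of each of the 10 markers in the 9 conditions; each point is 1 library, the line is the mean of 2 libraries, blue is wild type, orange is TKO, and cyt stands for cytokines. The wild-type day 6 libraries without cytokines are apart from the other 16 for 9 of the 10 markers, while for Stmn2 they overlap TKO at day 6 with cytokines (3848 against 4351).

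Adjusting for exonic length allowed levels to be set side by side between genes, on an approximate FPKM scale (fragments scaled to exonic length and library size, with GENCODE lengths). In wild-type day 6 aggregates without cytokines Tubb3 was highest at 539 ± 24.5 FPKM (SD, n = 2). Nefl (130 ± 83.1), Stmn2 (127 ± 31.7), Gap43 (117 ± 47.9) and Ina (114 ± 80.7) came next and did not differ beyond their spread. Map2 (43.8), Dcx (36.3), Elavl3 (25.5), Elavl4 (24.4) and Nefm (21.3) formed the lower end of the order, each with a spread of 8.98 to 29.5. The lengths include bases that overlap other genes, 1108 in Nefl and Nefm, 456 in Ina, 256 in Elavl3 and 65 in Map2. Reads of those bases cannot be told apart by gene, so the place of these genes in the order is approximate. In TKO aggregates of the same day and medium, Stmn2 (51 ± 10.3 FPKM) and Tubb3 (48.3 ± 12.6) were the highest, followed by Ina (9.66 ± 2.43), and Dcx was at 0.0167.

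Which markers rose as wild-type EpiLCs became aggregates without cytokines was addressed in 2 steps. From EpiLC to day 2, 7 of the 10 were called higher (edgeR adjusted p below 0.05) and none lower, with 18.6% of all 16582 tested genes called higher and 15.7% lower. Map2 rose 5.56-fold (log2 2.48 ± 0.31 SE, edgeR adjusted p = 3.64e-05) and Gap43 5.7-fold (2.51 ± 0.56, edgeR adjusted p = 0.00305). Tubb3 rose 3.48-fold, Stmn2 3.11-fold and Elavl4 2.88-fold (edgeR adjusted p = 0.000833, 0.000578 and 0.0248). Dcx and Nefm started from few counts, and a fitted fold change then depends on the prior count. For such genes a pooled ratio is given, the summed counts of the 2 libraries of one group over those of the other, each divided by the summed size factors. It was 36.9 for Dcx (95% counting interval 14.1 to 137.3) and 7.9 for Nefm (5.14 to 12.6), with edgeR adjusted p of 0.00155 and 0.0024. Without the second EpiLC library, which holds all 24 Nefm counts of that group, both were still called (edgeR adjusted p = 0.0494 and 0.00286). Elavl3, Nefl and Ina were not called, with log2 differences of 0.25, -0.52 and -0.27. Without either EpiLC library or the first day 2 library the Elavl4 call was lost (edgeR adjusted p = 0.0858, 0.145 and 0.15).

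From day 2 to day 6 all 10 markers rose, with 20.5% of genes called higher and 19% lower. The median log2 fold change of the markers was 4.32, against 0.008 for all genes. The largest of these was that of Dcx (log2 6.55 ± 0.66 SE), followed by Elavl4 (5.39 ± 0.46), Nefl (5.19 ± 0.48), Nefm (4.75 ± 0.58) and Elavl3 (4.43 ± 0.28). Map2 (4.21), Tubb3 (3.47), Gap43 (3.13), Ina (2.52) and Stmn2 (1.89) rose by less. The 3 genes that had not been called by day 2 thus rose 21.6-fold (Elavl3), 36.5-fold (Nefl) and 5.73-fold (Ina) in this second step, with edgeR adjusted p of 4.04e-08, 1.24e-06 and 9.19e-05. Without the first day 6 library the log2 fold changes of Dcx, Elavl4, Nefl, Nefm, Map2 and Ina were clearly smaller, at 5.31, 4.37, 4.31, 3.73, 3.6 and 1.51, and without the second that of Dcx was 7.19. All 10 were also called without the first or the second day 6 library, with a median log2 fold change of 3.67 or 4.68 and a largest edgeR adjusted p of 0.00123 or 3.75e-05.

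Between EpiLC and day 6, all 10 were called higher (31.7% of genes higher, 29% lower), with a median log2 fold change of 5.45 and a range from 2.25 (Ina) to 7.9 (Nefm) in the 9 genes other than Dcx. For Dcx, the pooled ratio to EpiLCs was 4522 (95% counting interval 1766 to 16600, which does not cover the spread between libraries), and the fitted log2 fold change was 11.7, or 10.45 without the first and 12.35 without the second day 6 library. Leaving out the first or the second wild-type day 6 library kept all 10 calls, with a median log2 fold change of 5.23 or 5.6 and a largest edgeR adjusted p of 0.000428 or 1.4e-07. Without the first, Ina was at 1.24, Nefl at 3.79, Elavl4 at 5.9, Map2 at 6.08 and Nefm at 6.91.

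**Figure D2:**
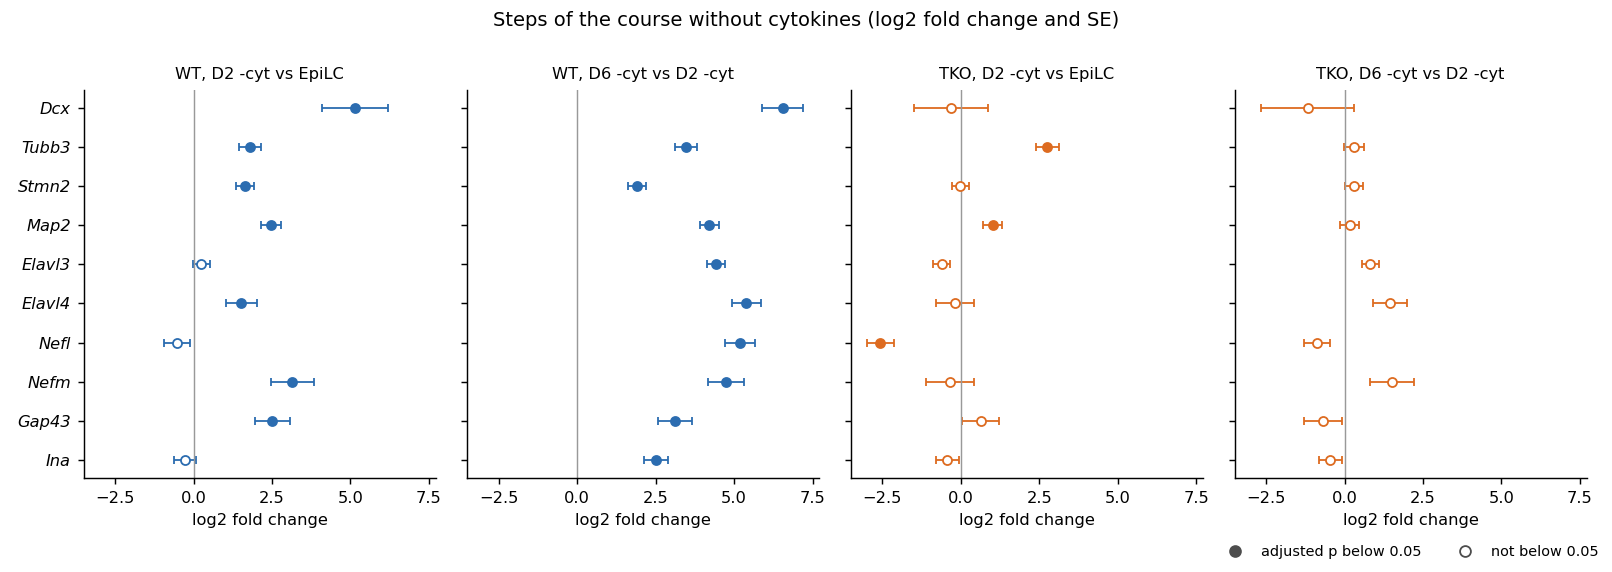
Log2 fold change of each marker (point) with its standard error (bar) for the steps EpiLC to day 2 and day 2 to day 6 without cytokines, in wild type (blue, left panels) and TKO (orange, right panels), with filled points for edgeR adjusted p below 0.05. In wild type 7 and then all 10 markers are called higher; in TKO 3 are called in the first step and none in the second.

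The 2 wild-type day 6 libraries without cytokines differed in how far the markers had risen. The first was higher than the second 3.72-fold for Dcx, 3.05-fold for Elavl4, 3.03-fold for Nefm, 3.02-fold for Ina and 2.67-fold for Nefl. Map2 (2.05), Gap43 (1.82), Elavl3 (1.67) and Stmn2 (1.43) differed by less, and Tubb3 (0.942) ran slightly the other way. The median of the 10 ratios was 2.36. In the same libraries 20 synaptic genes summed to a ratio of 2.87 and 20 neuronal regulators to 2.41, whereas 12 neural progenitor genes and 10 broadly expressed relatives of the markers both gave 0.819. The markers of neurons and of progenitors therefore moved apart between these 2 libraries, and the part of cell composition in the markers' spread was not tested.

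**Figure D3:**
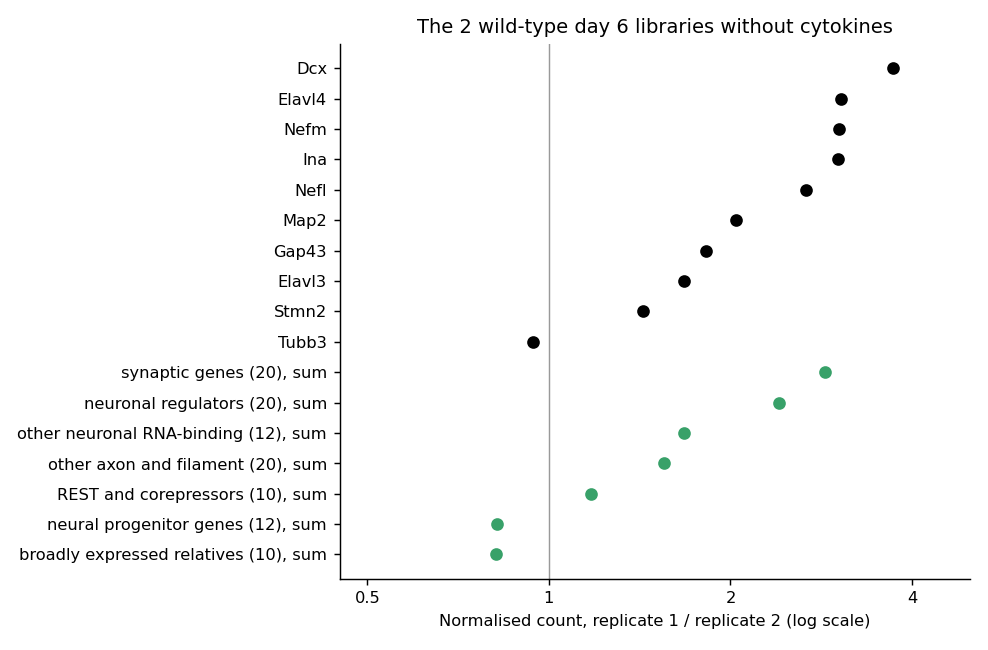
Ratio of the first to the second wild-type day 6 library without cytokines (log axis), for each marker (black) and for the summed normalised counts of gene groups (green); the grey line marks a ratio of 1. All markers but Tubb3 lie above 1, up to 3.72 for Dcx, while neural progenitor genes and broadly expressed relatives lie at 0.819.

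With cytokines, wild-type cells at day 6 did not carry this rise. All 10 markers were lower than in day 6 aggregates without cytokines, where 28.6% of genes were called lower and 29.6% higher. The median log2 difference was -6.44. Gap43 had 12 counts against 10217, a ratio of 0.00121 (95% counting interval 0.000622 to 0.00211). Nefm was lower by a factor of 332, Nefl by 208, Map2 by 120, Elavl4 by 63.1, Tubb3 by 60.4 and Elavl3 by 41.8. The smaller differences were those of Ina (10.7-fold) and Stmn2 (7.65-fold), with edgeR adjusted p of 2.51e-06 and 8.16e-07. For Dcx, 5 counts stood against 22929, a ratio of 0.000224 (95% counting interval 7.26e-05 to 0.000522). All 10 calls held without either of the 2 libraries without cytokines (largest edgeR adjusted p = 1.24e-06). Without the first of them Ina was at log2 -2.42 and Stmn2 at -2.65, so their order turned, and Nefm, Nefl, Map2 and Elavl4 were at -7.37, -6.83, -6.3 and -4.96.

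Against EpiLCs, the same cytokine-treated cells had 4 markers lower and none higher, with 18.2% of genes called lower and 22.4% higher. Gap43 was at 0.0661 times the EpiLC level (12 counts against 147, 95% counting interval 0.0334 to 0.119) and Nefl fell 8.2-fold (edgeR adjusted p = 0.00144 and 0.000176). Ina fell 2.26-fold and Elavl3 1.63-fold (edgeR adjusted p = 0.0176 and 0.0456). The Elavl3 call was lost without any 1 of the 4 libraries (edgeR adjusted p from 0.0693 to 0.26) or without any 1 of the 8 TKO aggregate libraries (0.0546 to 0.0597), and that of Ina without either EpiLC library or the second day 6 library (0.0606, 0.0662 and 0.138). Scaling by library size alone turned the split to 2 higher (Stmn2, Elavl4) and 2 lower (Nefl, Gap43). The count without 1 library at a time ran from 2 to 5.

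How TKO differed from wild type was compared in 4 matched conditions. In EpiLCs 2 markers were higher in TKO and 1 lower, with 7.57% of genes called higher and 3.18% lower. Nefl was 9.44-fold higher (log2 3.24 ± 0.44 SE, edgeR adjusted p = 0.000579) and Stmn2 3.81-fold higher (1.93 ± 0.29, edgeR adjusted p = 0.00115). Without the first TKO library the Nefl difference was log2 2.55. Tubb3 was 2.41-fold lower (edgeR adjusted p = 0.029), a call lost without any 1 of the 4 libraries (edgeR adjusted p from 0.0716 to 0.155). The other 7 were not called, with log2 differences between -0.43 (Ina) and 2.24 (Dcx, which rested on 16 counts in 1 TKO library).

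At day 2 without cytokines 6 markers were lower in TKO and Nefl was higher, with 14.8% of genes called lower and 18% higher. Dcx was at 0.11 times the wild-type level (12 counts against 141, 95% counting interval 0.0553 to 0.198), Nefm 5.29-fold lower, Gap43 4.25-fold, Elavl4 3.77-fold, Elavl3 2.22-fold and Map2 2.14-fold lower (edgeR adjusted p from 0.00501 to 0.0113). Nefl was 2.3-fold higher (edgeR adjusted p = 0.0412). Tubb3, Stmn2 and Ina were not called (log2 -0.31, 0.28 and -0.59). The calls varied with single libraries. Without the first TKO day 2 library 2 markers were called, 4 without the second, 3 without the second wild-type day 2 library and 5 without the first, and Nefl was lost without any 1 of the 4 (edgeR adjusted p from 0.0568 to 0.236).

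At day 6 without cytokines all 10 markers were lower in TKO, with 26.9% of genes called lower and 28.5% higher, and the median log2 difference was -5.01 against 0.005 for all genes. Gap43 (log2 -5.9 ± 0.63 SE), Elavl4 (-5.85 ± 0.48), Nefm (-5.64 ± 0.62), Map2 (-5.15 ± 0.33), Nefl (-4.86 ± 0.48) and Elavl3 (-4.75 ± 0.29) differed most beside Dcx. Dcx had 5 counts against 22929, a ratio of 0.000389 (95% counting interval 0.000126 to 0.000908). Ina (11.8-fold) and Tubb3 (11.2-fold) differed by less, and Stmn2 by the least, at 2.5-fold (log2 -1.32 ± 0.28, edgeR adjusted p = 0.00106). Without the first wild-type library all 10 were still called, with log2 differences from -9.7 to -1.04 and a largest edgeR adjusted p of 0.00772. Without the second, the largest was 0.000285. Ina was at -2.56, Nefl at -4, Map2 at -4.55, Nefm at -4.63 and Elavl4 at -4.83 without the first wild-type library.

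At day 6 with cytokines 3 markers were higher in TKO and 1 lower, with 11.3% of genes called higher and 7.53% lower. Stmn2 was 5.64-fold, Nefl 5.5-fold and Tubb3 3.83-fold higher (edgeR adjusted p = 6.22e-05, 0.00285 and 0.00127), and Ina was 6.62-fold lower (0.000438). All 4 calls held without any 1 of the 18 libraries, Tubb3 at log2 1.2 without the first TKO library. Dcx had 2 counts in TKO and 5 in wild type. Since the wild-type sample was described as sorted and the TKO sample as whole, sorting and genotype cannot be told apart here.

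**Figure D4:**
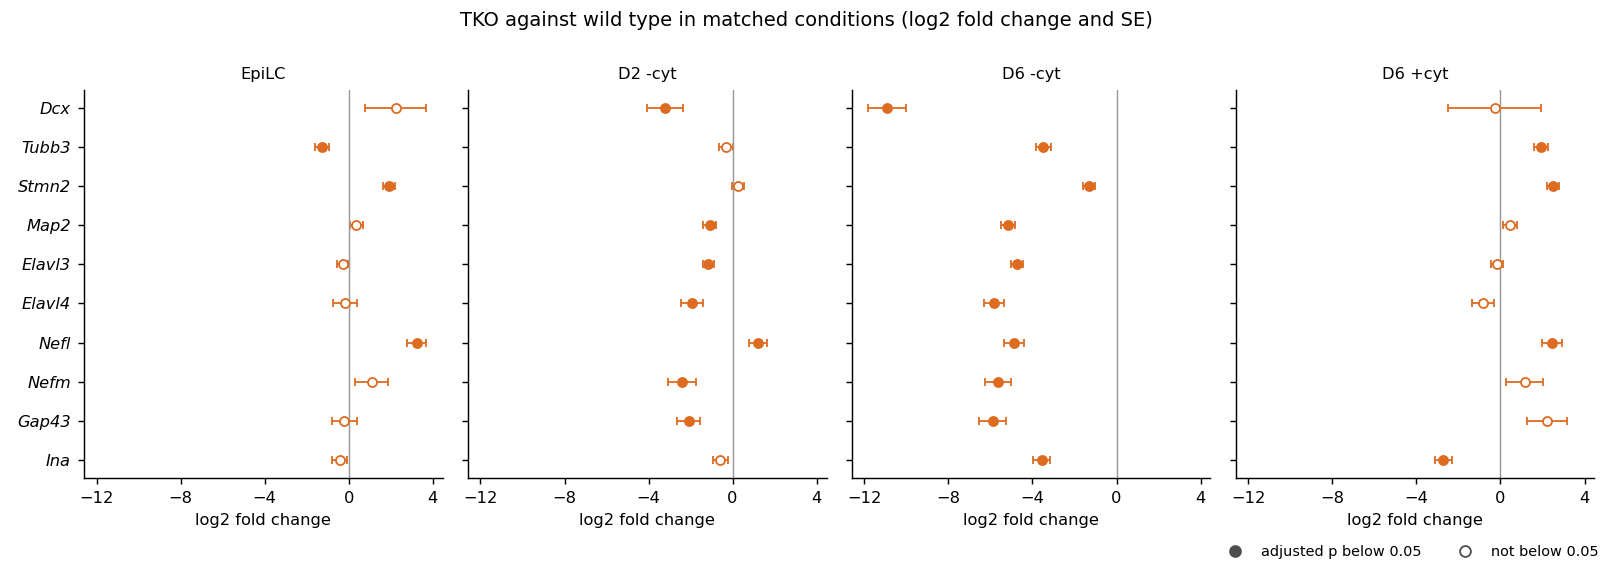
Log2 difference of TKO from wild type (point) with its standard error (bar) for each marker in the 4 matched conditions, with filled points for edgeR adjusted p below 0.05 and the grey line at 0. All 10 markers lie below 0 at day 6 without cytokines, from -1.32 (Stmn2) down to Dcx, while Nefl and Stmn2 lie above 0 in EpiLCs and at day 6 with cytokines.

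Within TKO the course without cytokines had few marker calls. From EpiLC to day 2, Tubb3 rose 6.77-fold (log2 2.76 ± 0.35 SE, edgeR adjusted p = 0.000157), Map2 rose 2.01-fold (edgeR adjusted p = 0.0345) and Nefl fell 5.91-fold (edgeR adjusted p = 0.00124), with 10.1% of genes called higher and 8.52% lower. The Map2 call was lost without any 1 of the 4 libraries (edgeR adjusted p from 0.0651 to 0.188), and without the first EpiLC library Gap43 was called higher (0.0451). From day 2 to day 6 edgeR called none of the 10, DESeq2 also none, and 3 had an unadjusted p below 0.05, namely Elavl3 (log2 0.83), Elavl4 (1.46) and Nefm (1.51). Few genes of any kind were called in that step, 0.422% higher and 0.0543% lower.

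With cytokines, TKO aggregates at day 2 had Tubb3 2.56-fold above EpiLCs and Nefl, Ina and Elavl3 9.73-fold, 3.38-fold and 3.16-fold below (edgeR adjusted p = 0.0158, 0.00019, 0.00557 and 0.002), with 7.88% of genes called higher and 6.39% lower. The Tubb3 call was lost without the first EpiLC library or the second library with cytokines (0.116 and 0.101), and that of Ina without the first library with cytokines (0.051). From day 2 to day 6 with cytokines, Tubb3 was 2.3-fold higher and Ina 3.28-fold lower (edgeR adjusted p = 0.0454 and 0.0226), with 4.28% of genes called higher and 1.72% lower. The Ina call was lost without any 1 of the libraries compared. That of Tubb3 was lost without either day 2 library, the first day 6 library (log2 0.47) or many single libraries of other groups. The count in that step ran from 0 to 5 without 1 library at a time, with 0 without either day 2 library or the first day 6 library, 4 without the first wild-type day 6 library without cytokines or either TKO EpiLC library, and 5 without the second wild-type day 6 library without cytokines.

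Between TKO aggregates with and without cytokines 2 markers were called at each day. At day 2, Tubb3 was 2.65-fold and Map2 2.46-fold lower with cytokines (edgeR adjusted p = 0.0294 and 0.0337), with 2.47% of genes called lower and 2.05% higher. Neither call held without any 1 of the 4 libraries compared, and 4 markers were called, Elavl3 and Ina in addition, when either wild-type day 6 library without cytokines was left out. The Map2 call was also lost without either wild-type EpiLC library or either TKO day 6 library without cytokines (edgeR adjusted p from 0.0503 to 0.0514). At day 6, Ina was 6.01-fold and Map2 2.45-fold lower with cytokines (edgeR adjusted p = 0.00303 and 0.0288), with 3.05% of genes called lower and 2.56% higher. The Map2 call was lost without either library without cytokines or the first with cytokines (0.128, 0.134 and 0.233), whereas without either wild-type day 6 library without cytokines Stmn2 was called higher (0.0309 and 0.0314) and Elavl3 lower (0.0495 and 0.0434). DESeq2 called 1 higher and 2 lower there.

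Whether the change itself differed between genotypes was tested with interaction terms. For EpiLC to day 2, 5 markers rose less, or fell more, in TKO, namely Dcx, Stmn2, Map2, Nefl and Nefm (6.19% of genes called lower, 6.08% higher), with edgeR adjusted p from 0.0138 to 0.0468. That count ran from 0 to 6 without 1 library at a time, with 0 without the second wild-type day 2 library or the first TKO day 2 library, 1 without the first EpiLC library of either genotype, 2 without the second wild-type EpiLC, the first wild-type day 2 or the second TKO day 2 library, and 3 without either wild-type day 6 library with cytokines. Without the first TKO EpiLC library, which holds all 16 counts of that group, the Dcx term was 0.71 in place of -5.46. Nefl and Stmn2 started from higher levels in TKO EpiLCs (log2 3.24 and 1.93 above wild type), which enter their terms to day 2 and to day 6. At day 2 itself Nefl was above wild type in TKO (log2 1.2), and Stmn2 was not called different (0.28). For EpiLC to day 6 all 10 had a negative term, a smaller rise or a fall in TKO (18.5% of genes called lower, 18.5% higher), with terms from -2.21 (Tubb3) to -8.1 (Nefl) in the 9 genes other than Dcx. All 10 were called without either wild-type day 6 library without cytokines (largest edgeR adjusted p = 0.00189 and 0.00199). Without the first TKO EpiLC library 9 were called, since the Dcx term was lost (edgeR adjusted p = 1). For the effect of cytokines at day 6, all 10 terms were positive and 8 were called (21% of genes called higher, 22% lower). Only the wild-type sample with cytokines was described as sorted, so sorting cannot be told apart from these terms. Ina (log2 0.84 ± 0.54 SE, edgeR adjusted p = 0.229) and Dcx (0.0552) were not called, and without the second wild-type day 6 library without cytokines both were (0.0035 and 0.00999). Without the first, the Ina term was -0.17 (edgeR adjusted p = 0.733) and Dcx was called (0.0182).

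Other genes of the neuronal cytoskeleton and of RNA processing were counted in lists that overlap the markers' roles. Of 20 other microtubule, axon growth and filament genes, 18 rose and 1 fell between wild-type EpiLCs and day 6 without cytokines (median log2 3.44, all genes 0.049), with 31.7% of all genes called higher and 29% lower. Stmn4 (log2 8.25 ± 0.91 SE) and Dpysl3 (6.13 ± 0.35), a stathmin and a collapsin response mediator, changed most, and Prph, encoding peripherin, least (0.41, edgeR adjusted p = 0.679). The one that fell was Nefh, the heavy neurofilament subunit (log2 -3.14 ± 0.42, edgeR adjusted p = 1.27e-05), which is named after its value was seen. Of 12 other neuronal RNA-binding genes all rose (median 3.83), Celf3 (6.46 ± 0.59) and Nova2 (6.03 ± 0.46) most and Cpeb3 (1.5 ± 0.44) least. Of 10 broadly expressed relatives, such as Elavl1, the ubiquitous HuR gene, and Tubb5, 4 rose and 3 fell, near those shares (median -0.01), Vim (4.9 ± 0.46) and Marcks (2.73 ± 0.22) changing most and Tubb5 (0.09 ± 0.2) least.

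In the same comparison 17 of 20 synaptic genes rose and 1 fell (median 4.24), 20 of 20 proneural and neuronal regulators rose (8.15) and 12 of 12 neural progenitor genes rose (5.71). Rbfox3 stands in both the synaptic and the RNA-binding lists. Gria2 (log2 9.96 ± 1.45 SE) and Gad2 (6.97 ± 1) changed most among the synaptic genes and Grin1 least (-0.02, edgeR adjusted p = 0.983). Neurod4 (log2 11.52) and Myt1 (11.01) changed most among the regulators and Neurod1 (2.26 ± 0.7) least. The synaptic gene that fell was Camk2b (log2 -2.12 ± 0.44), named after its value was seen. Pax3 (13.38) and Fabp7 (11.85) changed most among the progenitor genes and Sox3 (1.38 ± 0.36) least. In EpiLCs 1 regulator and 1 progenitor gene had 0 counts, and the 20 regulators summed to 212 and 211 normalised counts. Fold changes from such low levels depend on the prior count, so the size and order of the largest ones are approximate. At day 2 against EpiLC, 10 of 12 progenitor genes, 9 of 20 regulators, 12 of 20 cytoskeletal genes and 6 of 12 RNA-binding genes were called higher, and 4 of 20 synaptic genes were called higher and 2 lower, against 18.6% and 15.7% of all genes. Without the first day 6 library the EpiLC to day 6 counts higher were 18 of the cytoskeletal, 11 of the RNA-binding, 15 of the synaptic, 19 of the regulator and 12 of the progenitor genes, and without the second 19, 12, 17, 20 and 12.

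In TKO against wild type at day 6 without cytokines, 18 of the 20 cytoskeletal genes were lower and 1 higher (median log2 -3.45), 11 of 12 RNA-binding genes lower (-2.64), 17 of 20 synaptic genes lower and 2 higher (-2.1), 19 of 20 regulators lower (-4.85) and 11 of 12 progenitor genes lower and 1 higher (-3.91). Among the 10 relatives 4 were lower and 3 higher (-0.23), near the shares of all genes (26.9% lower, 28.5% higher). The median of all genes was 0.005. Without the first wild-type library 18 cytoskeletal, 10 RNA-binding, 12 synaptic, 17 regulator and 11 progenitor genes were lower, and without the second 19, 11, 18, 19 and 10. Stmn4 (-7.98 ± 0.91 SE) and Stmn3 (-5.82 ± 0.46) differed most in the cytoskeletal list and Prph least (-0.29, edgeR adjusted p = 0.78), and Nefh was again the opposite of the rest (3.2 ± 0.42, edgeR adjusted p = 1.54e-05). Celf3 (-5.72 ± 0.56) and Nova2 (-5.35 ± 0.44) differed most among RNA-binding genes and Cpeb3 least (-0.17, edgeR adjusted p = 0.759), and Slc17a6 (-6.16 ± 0.74) and Syt4 (-4.9 ± 0.64) differed most among synaptic genes and Vamp2 least (-0.69 ± 0.25). Marcks (-3.21 ± 0.23) and Vim (-2.3 ± 0.41) differed most among the relatives and Map4 least (0.15, edgeR adjusted p = 0.55). Neurog2 (-10.91 ± 0.78), which encodes a proneural factor, differed most among regulators and Pou4f1 least (-0.48, edgeR adjusted p = 0.29). Fabp7 (-9.97 ± 0.68) and Hes5 (-9.51 ± 0.43) differed most among progenitor genes. Sox2, which pluripotent and neural progenitor cells share, was the progenitor gene of smallest difference and was higher in TKO (1.28 ± 0.3, edgeR adjusted p = 0.00211). Progenitor and neuronal genes moved with the 10 markers, and the part of a lower share of neural cells in the markers' difference was not tested. Within TKO from EpiLC to day 2 without cytokines, 7 of 20 synaptic, 6 of 20 regulator and 1 of 12 RNA-binding genes were called higher. Of the 20 cytoskeletal genes 6 were higher and 3 lower, and of the 12 progenitor genes 4 higher and 1 lower, against 10.1% and 8.52% of all genes.

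Rest, whose product represses neuronal genes in other cells, gave 5035 and 4246 normalised counts in wild-type EpiLCs, 1956 and 1531 at day 2, 549 and 712 at day 6 without cytokines, and 7416 and 6676 at day 6 with cytokines. In TKO it gave 3879 and 4599 in EpiLCs, 5476 and 5963 at day 2 without cytokines, 6482 and 5722 at day 2 with cytokines, 4029 and 4581 at day 6 without cytokines, and 4440 and 4624 at day 6 with cytokines. The wild-type libraries without cytokines were therefore the 4 lowest of 18, and the 2 at day 6 the lowest of all. Rest fell by 1.36 on the log2 scale from wild-type EpiLC to day 2 (edgeR adjusted p = 5.41e-05) and by 2.88 from EpiLC to day 6 (1.38e-08). It was higher in TKO by 2.79 ± 0.19 at day 6 without cytokines (edgeR adjusted p = 1.99e-08) and was not called different in EpiLCs (log2 -0.1, edgeR adjusted p = 0.78). Of the 10 genes for REST and its corepressors, 4 rose (among them Rcor3, Rcor1 and Hdac2) and 3 fell (Rest, Hdac1 and Sin3a) between wild-type EpiLC and day 6 without cytokines, with a median log2 fold change of 0.26, near the shares of all genes (31.7% and 29%). In TKO against wild type at day 6 without cytokines, 3 were higher (Rest, Hdac1 and Sin3a), 4 were lower (among them Rcor2, Ehmt2 and Hdac2), and Rcor1, Rcor3 and Kdm1a were not called (median 0.08), against 28.5% of all genes higher and 26.9% lower. Without the first or the second wild-type day 6 library Rest was higher in TKO by 2.61 or 3. Its log2 fold change from EpiLC to day 6 was then -2.7 or -3.08. The median of the 10 REST genes in TKO against wild type was then 0.26 or -0.08. The part of Rest in the marker levels was not tested.

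**Figure D5:**
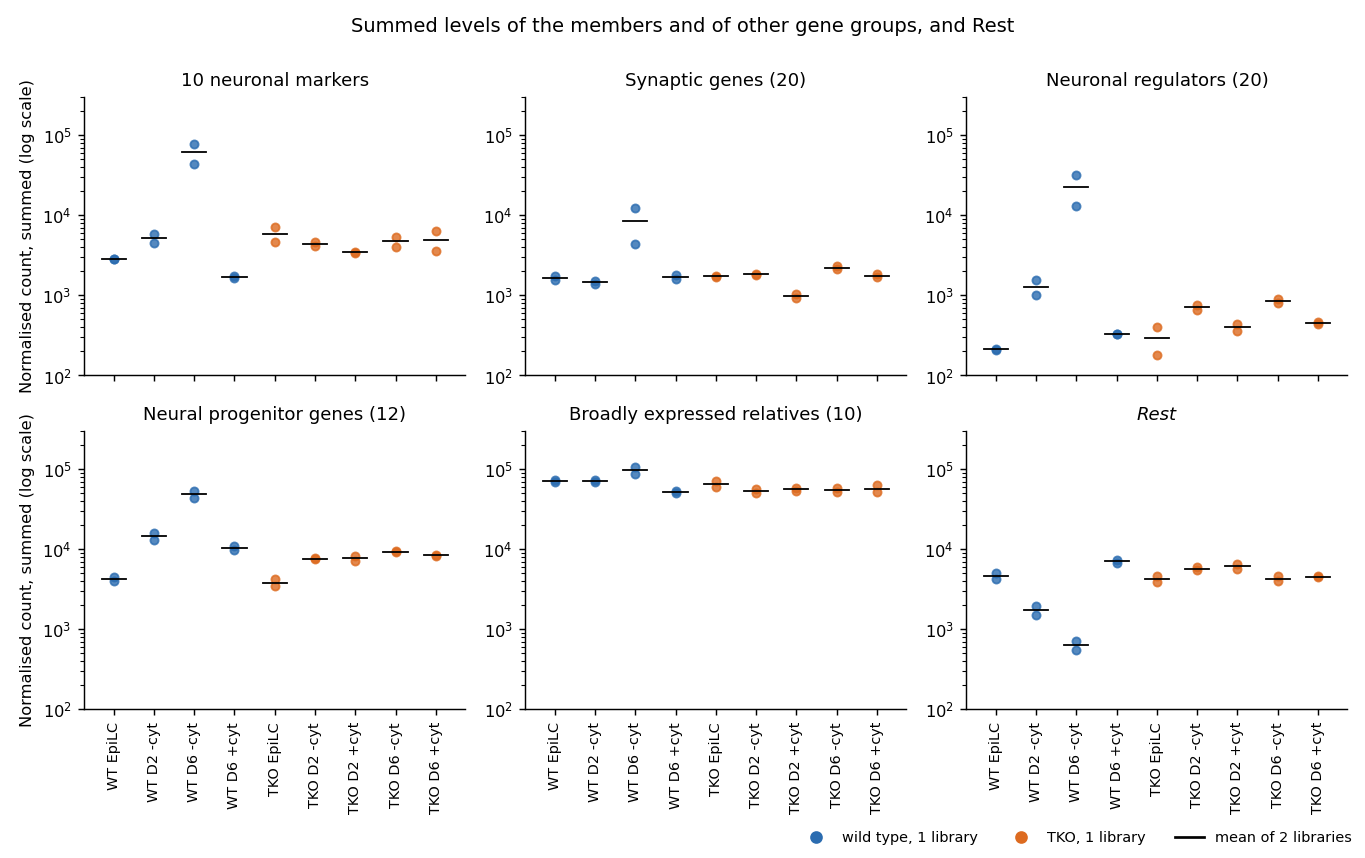
Summed normalised counts (log axis) of the 10 markers, of 4 gene groups and of Rest in the 9 conditions; points are libraries, lines are means of 2 libraries, blue is wild type, orange is TKO, and cyt stands for cytokines. The markers and all 4 gene groups peak in wild-type day 6 aggregates without cytokines, where Rest is lowest (549 and 712). The broadly expressed relatives peak by less (86530 and 105700, against at most 73480 in the other libraries). The panels share the same order of conditions.

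Across the 18 libraries the markers' log2 levels followed one another to different degrees. The correlation of each with the mean of the other 9 was highest for Map2 (Pearson r = 0.977), Dcx (0.942) and Nefm (0.936) and lowest for Stmn2 (0.507), Ina (0.663) and Nefl (0.71). Over the 45 pairs the median was 0.727, the highest was that of Elavl3 with Elavl4 (0.966) and the lowest that of Stmn2 with Ina (-0.048). These 18 points share 9 conditions, and the same 2 libraries top 9 of the 10 markers, so the values are a description. Over the other 16 libraries the median of the 45 pairs was 0.306, and the correlation with the mean of the other 9 was 0.902 for Map2, 0.731 for Nefm and 0.664 for Dcx but 0.325 for Elavl4 and 0.006 for Stmn2. Among 11987 genes with a mean of 50 or more normalised counts, the 5 whose profile was most like the markers' mean were Celsr2 (r = 0.985), Nsg1 (0.98), Kif1b (0.974), Rtn1 (0.971) and Srrm4 (0.97). Over the 9 group means the first 3 were Nsg1, Celsr2 and Kif1b. These rankings, and the single genes below, include the 2 wild-type day 6 libraries without cytokines and were not repeated without them. The single gene most like each marker was Cdip1 for Dcx, Vim for Tubb3, Bmp1 for Stmn2, Epha5 for Map2, Zswim5 for Elavl3, Inpp5f for Elavl4, Fam13c for Nefl, AU040320 for Nefm, Actr1a for Gap43 and Zbtb12 for Ina, with r from 0.92 (Nefl) to 0.98 (Map2).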

How the data were processed

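RNA of 18 libraries (9 groups of 2) was depleted of ribosomal RNA and made into libraries with a directional kit. The authors trimmed reads with Trim Galore 0.5.0 and cutadapt 1.16, aligned them to mm10 with STAR 2.7.1a and counted fragments in exons with featureCounts (Subread 1.5.2), without strand and without multi-mapping fragments. The deposited values are raw counts per gene. Comment rows were dropped (33), leaving 25239 genes, and every column matched 1 sample. Genes passing edgeR's filter (16582, all 10 markers included) were tested with edgeR's quasi-likelihood test (edgeR 4.0.16, R 4.3.3, TMM scaling, 1 model of 9 group means), with Benjamini-Hochberg adjustment over all genes tested. A gene was called at an adjusted p below 0.05, and fold changes have standard errors derived from the test statistic. Normalised counts use size factors of DESeq2 1.42.0. Counting intervals and the limits of a count of 0 cover counting error only. FPKM used GENCODE exonic lengths. Alternatives were other scaling, filters, DESeq2, a replicate block, stricter thresholds and leaving out each library. List counts, Rest and correlations without the wild-type day 6 libraries without cytokines were added after seeing the data. The markers and gene lists were chosen with earlier results of these data known. Of each list the text names the 2 members of largest and the 1 of smallest change in a comparison, and for REST its members. Some genes that this rule names are not reported here. Protein sequences were not used here.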

Additional observations from a re-analysis of the deposited data

Results flagged for a closer look

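The change of a marker differed between wild type and TKO in 23 interaction tests (edgeR adjusted p below 0.05), each given as the TKO change minus the wild-type change on the log2 scale. From EpiLC to day 2 without cytokines the terms were -5.46 for Dcx, -1.65 for Stmn2, -1.47 for Map2, -2.04 for Nefl and -3.5 for Nefm. From EpiLC to day 6 without cytokines they were -13.18 for Dcx, -2.21 for Tubb3, -3.25 for Stmn2, -5.52 for Map2, -4.47 for Elavl3, -5.66 for Elavl4, -8.1 for Nefl, -6.73 for Nefm, -5.69 for Gap43 and -3.13 for Ina. For the effect of cytokines at day 6 they were 5.42 for Tubb3, 3.82 for Stmn2, 5.61 for Map2, 4.58 for Elavl3, 5.02 for Elavl4, 7.32 for Nefl, 6.79 for Nefm and 8.1 for Gap43. These cytokine terms also hold sorting, which the study describes only for the wild-type sample with cytokines. The Dcx values depend on the prior count, since TKO libraries held 0 to 16 counts. With 2 libraries a group, no library could be tested as an outlier.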

How the results depend on the processing

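All 10 markers were called in the 4 comparisons with wild-type day 6 aggregates without cytokines under every alternative run, except that Stmn2 fell below an added fold limit of log2 2 against day 2 and against TKO (9 called). The number of markers called moved by more than 1.5 times in these cases. With an added fold limit of log2 2 there were 4 in wild-type day 2 against EpiLC, 2 in wild-type day 6 with cytokines against EpiLC, 1 in TKO against wild-type EpiLCs, 3 in TKO against wild type at day 2, 1 in TKO day 2 with cytokines against EpiLC, 0 in TKO day 6 against day 2 with cytokines, 0 and 1 for TKO cytokines at day 2 and day 6, and 3 for the interaction to day 2. With an adjusted p below 0.01 there were 2, 4, 0, 0, 1 and 0 in wild-type day 6 with cytokines against EpiLC, TKO against wild type at day 2, TKO day 6 against day 2 with cytokines, TKO cytokines at day 2 and at day 6, and the interaction to day 2. Fitting only the libraries compared gave 1 in TKO day 6 against day 2 without cytokines, 5 for TKO cytokines at day 2 and 4 at day 6. Library size alone gave 4 for TKO cytokines at day 2 and 4 at day 6, no filter gave 4 for TKO cytokines at day 2 and 4 for TKO day 6 against day 2 with cytokines, and DESeq2 gave 4 for TKO cytokines at day 2. Library size alone shifted the median of all genes by -0.489 to 0.728, against -0.032 to 0.074 with TMM. Without 1 library at a time the counts ran from 6 to 7 (wild-type day 2 against EpiLC), 2 to 5 (wild-type day 6 with cytokines against EpiLC), 2 to 3 (TKO against wild-type EpiLCs), 2 to 8 (TKO against wild type at day 2), 2 to 3 (TKO day 2 against EpiLC), 3 to 4 (the same with cytokines), 0 to 5 (TKO day 6 against day 2 with cytokines), 0 to 4 and 1 to 4 (TKO cytokines at day 2 and day 6), 0 to 6, 9 to 10 and 8 to 10 (interactions to day 2, to day 6 and with cytokines). Where 1 library leaves a group with 1 sample, that sample is assumed to vary like the other groups. The interaction of Dcx to day 2 reversed to 0.713 without TKO EpiLC replicate 1, and ran from -6.398 to 0.713 without 1 library at a time. Same-numbered libraries deviated together little (36 correlations, median 0.0118, from -0.156 to 0.182, with 7 above 0.1). This cannot show whether the numbers pair some of the libraries. A replicate block gave 1 for TKO day 6 against day 2 with cytokines, where Tubb3 was lost (adjusted p = 0.0503), lost Elavl3 in wild-type day 6 with cytokines against EpiLC (0.054) and gained the Dcx interaction with cytokines (0.0167). Of 4860 values of single markers recomputed, 206 changed their side of the threshold or their direction, and 53 that were not called changed sign. The cause of these changes was not tested. Depth limits Dcx most, which had 0 to 16 counts in the 14 libraries outside wild-type aggregates without cytokines.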
